A study of Mus musculus with 10 samples.

Results

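The Myf5 and Myf6 locus was read as every called peak that overlapped chr10:106890000-107100000 (mm9), a window of 210 kb, by at least 1 bp. The members were 62 peaks out of 241128 in 7 lists: 5 MyoD peaks, 8 Myf5 peaks, 15, 14 and 18 peaks of acetylated histone H4 (H4Ac) in cells with GFP, MyoD and Myf5, and 0 and 2 peaks in the mock precipitations with the MyoD and the Myf5 antibody. The 2 genes lie near 106920000 to 106933000, which is called the gene stretch here. All lists came from mouse embryonic fibroblasts of genotype MyoD-/-; Myf5-/-, so every group, controls included, lacked both factors before infection. Lentivirus then delivered MyoD, Myf5 or green fluorescent protein (GFP). The cells were moved to medium for differentiation after 24 h and collected 20 h later. MyoD was precipitated from cells with MyoD, Myf5 from cells with Myf5, and both mocks used the same antibodies on cells labelled as carrying GFP. H4Ac was precipitated from native chromatin of all 3 cell populations. There was 1 list per group, and the MyoD and Myf5 lists each join 2 replicates by their titles. No replicate error could therefore be computed, no test across samples was possible, and sequencing depth is unknown from these files. No source used here describes the structure of the Myf5 mutant allele or how much Myf5 sequence the virus holds.

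Myf5 and Myf6 (also called MRF4) are myogenic basic helix-loop-helix factors, as are MyoD and myogenin. These proteins bind E-boxes, short DNA motifs read CANNTG, as dimers with E-proteins. Myf5 acts early in the commitment of embryonic cells to skeletal muscle, and Myf6 acts both in the embryo and in mature fibres. The genes are neighbours, and in embryos their expression is controlled by many separate enhancers spread over a long stretch of DNA upstream of Myf5. Acetylation of histone H4 marks active chromatin. By name and order in the RefSeq annotation of GRCm38, the protein-coding neighbours are Lin7a, Myf5, Myf6, Ptprq and Otogl, with positions rising in that order. Myf5 is on the minus strand, so higher positions are upstream of it.

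The promoter of Myf5 is shown because the Myf5 mock peaks and the strongest H4Ac peaks of cells with Myf5 lie at the Myf5 end of the gene stretch. In cells with GFP and with MyoD the strongest H4Ac peaks of the locus lay elsewhere. It comes from the RefSeq table for GRCm38.p6 (chr10:107486085-107486384, minus strand, 250 bases before and 50 after the annotated start), and its position cannot be set against the mm9 peaks. Capitals mark any CANNTG or TATAAA on either strand.

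Myf5: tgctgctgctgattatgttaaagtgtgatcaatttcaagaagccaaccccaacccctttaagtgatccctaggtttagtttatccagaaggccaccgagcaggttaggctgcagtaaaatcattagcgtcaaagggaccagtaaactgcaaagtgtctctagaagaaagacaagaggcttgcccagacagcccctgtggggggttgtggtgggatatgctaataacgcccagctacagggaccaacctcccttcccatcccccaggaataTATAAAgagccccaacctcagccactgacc

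These 300 bases hold no CANNTG, which 72.3% of the 32851 promoters in that table hold. They hold 1 TATAAA, starting 21 bases after the annotated start, and 13.6% of promoters hold that motif. The E-box variants CAGCTG and CACCTG, found in 16.3% and 20.2% of promoters, are absent with the general motif. The table had no match for Myf6.

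The locus carried many H4Ac calls, and its factor counts were moderately above the median for stretches of the same length. Chromosomes were divided into 12548 tiles of the length of the window, and the counts were set against them as a description. The 5 MyoD peaks compare with a median of 2 per tile, and 31.6% of tiles held at least as many. For the 8 Myf5 peaks the tile median was 5, and 40.3% of tiles held at least as many. The H4Ac counts stood higher in the order of tiles, since the tile median was 1 in each population. Only 1.89% of tiles had at least as many H4Ac peaks with GFP, 3.55% with MyoD and 0.869% with Myf5. These counts take no account of peak width or height. Median widths at the locus were 193, 230 and 350 bp with GFP, MyoD and Myf5, against 349, 264 and 373 bp in the lists. Median coverages were 1.14, 1.53 and 1.52 times the cutoff, against 1.42, 1.37 and 1.38 times. Most factor and H4Ac peaks of the locus were poor in GC, while the GC content of the rest of the window was not measured. The lowest of 5 GC bins (up to 40%) held 13 of the 15 locus H4Ac peaks in cells with GFP, 12 of 14 with MyoD and 15 of 18 with Myf5. The shares of the whole lists were 13.3%, 13.1% and 19.2%. All 8 Myf5 peaks and 4 of 5 MyoD peaks were in that bin as well, against 13.9% and 15.1% of their lists.

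**Figure D1:**
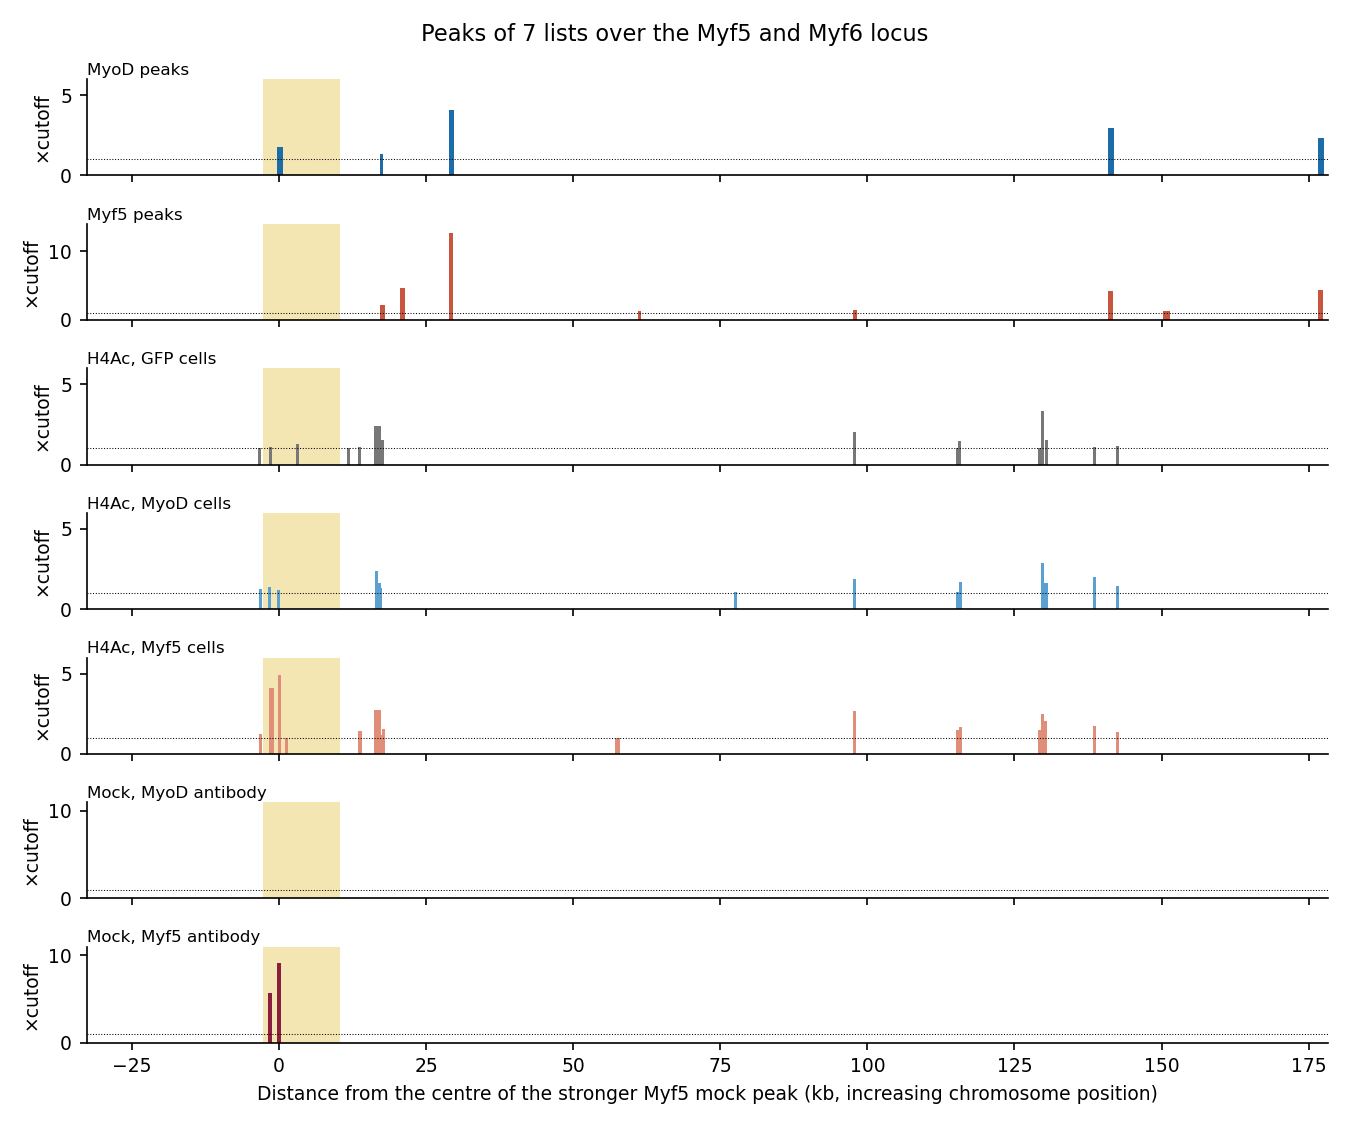
Peaks of the 7 lists across the window, by distance from the centre of the stronger Myf5 mock peak (kb), with bar height showing maximum coverage divided by the authors' cutoff and narrow peaks drawn at a minimum width. The shaded band is the gene stretch, and the dotted line is the cutoff. Mock peaks lie in the band only, the Myf5 list has none there, and its strongest bar, 12.7 times the cutoff, is at 29.3 kb.

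At the genes themselves, coverage stood highest above the cutoff in the Myf5 mock and in H4Ac of cells with Myf5. Cutoffs differ between lists. No peak of the whole Myf5 list overlapped a Myf5 mock peak, so a missing Myf5 call at a mock peak is uninformative. The library labelled as the Myf5 mock had 2 peaks in the gene stretch, although its cells are labelled as carrying GFP and as lacking Myf5. The first, at 106920936 to 106921365, had a maximum coverage of 181 (5.66 times its cutoff of 32 and rank 133 of 1359). The second, at 106922265 to 106923091, had a coverage of 284 (9.16 times its cutoff of 31 and rank 80), against a median of 52 in that list. They lay 899 bp apart, and the nearest other Myf5 mock peak ended 1114198 bp below the window. The MyoD mock, from cells with the same labels, had no peak in the window, while 37.2% of all Myf5 mock peaks overlapped a MyoD mock peak. Among the 853 Myf5 mock peaks without a MyoD mock peak, these 2 ranked 4 and 10, in a class with a median coverage of 43. One of them overlapped a MyoD peak and the other an H4Ac peak of cells with GFP, against 3.97% and 1.77% of all Myf5 mock peaks. The source of their reads was not tested.

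In cells with Myf5, H4Ac peaks of high coverage lay at both mock positions. One spanned 106921037 to 106921768 with an H4Ac coverage of 98 (4.08 times its cutoff of 24), and shared 329 bp with the first mock peak. The other, at 106922489 to 106922980, had an H4Ac coverage of 118 (4.92 times its cutoff) and lay wholly within the second mock peak. Both were in the top of their list, with 95.5% and 97.3% of it at or below them. Of the 10211 peaks in cells with Myf5 that overlapped no H4Ac peak of cells with GFP, the one with coverage 118 was the strongest. The same 2 positions stood lower within the lists of the other populations. At the first, H4Ac coverage was 26 in cells with GFP (106920987 to 106921367, cutoff 24) and 29 in cells with MyoD (106920989 to 106921262, cutoff 21). These values had 16.1% and 49.5% of their lists at or below them. At the second, cells with GFP had no peak. Cells with MyoD had one of coverage 25 at 106922528 to 106922689 (cutoff 21), with 32.6% of the list at or below it.

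The control coverage given with the H4Ac list of cells with Myf5 was raised at the same 2 peaks, to 14 and 22, against a median of 4 over the list and a range of 2 to 7 at the other 16 peaks of the locus. Only 20 of the 32041 peaks had a control of 14 or more, and 6 had one of 22 or more. The authors' control p-values were 1.61e-05 and 1.23e-09. A control p-value of 1e-05 or lower occurred at 1 of 18 locus peaks, against 0.0499% of the list, and at none of the 15 with GFP and the 14 with MyoD, where 0.0546% and 0.0488% of the lists had one. In cells with GFP, control coverage at the first position was 7, and in cells with MyoD it was 7 and 9, while the whole locus ranged from 1 to 8 and from 3 to 11. A Myf5 mock peak overlapped 2 locus peaks with Myf5, 2 with MyoD and 1 with GFP, against 0.103%, 0.111% and 0.0996% of the lists. Whether reads of viral Myf5 sequence contributed at these 2 positions was not tested, so the H4Ac coverage there in cells with Myf5 cannot be assigned to the chromosomal gene.

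**Figure D2:**
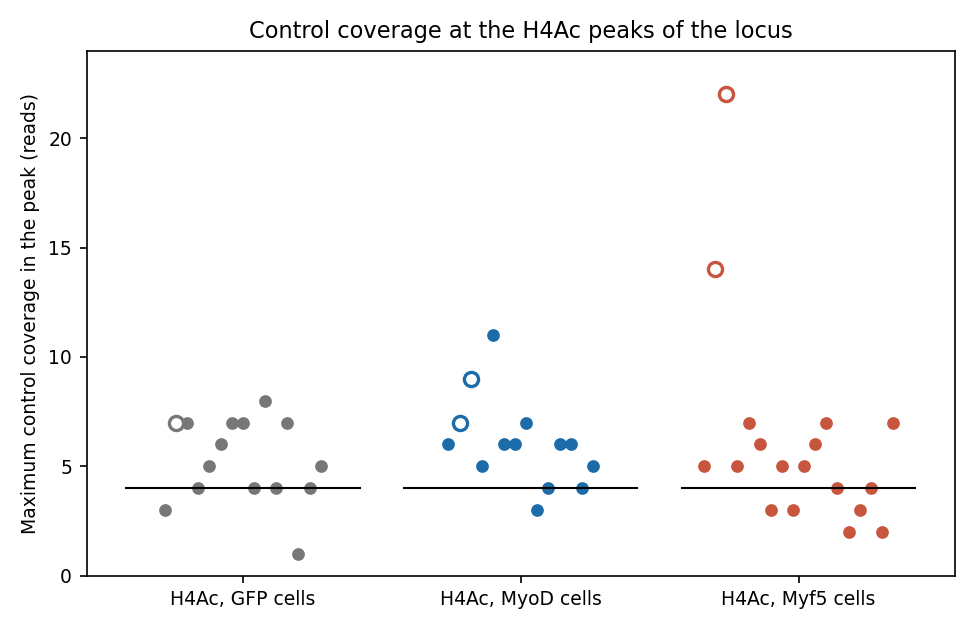
Maximum control coverage (reads) at each H4Ac peak of the locus in the 3 cell populations, ordered by position within a population. Open circles are peaks that overlap a Myf5 mock peak, and lines are the medians of the whole lists, 4 in each. The values 14 and 22 in cells with Myf5 stand above the rest.

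MyoD had 1 peak in the gene stretch and Myf5 had none. The MyoD peak spanned 106922275 to 106923444, with a coverage of 47 (1.74 times its cutoff of 27), near the middle of its list, and a control coverage of 5. It shared 817 bp with the stronger Myf5 mock peak. In all, 53 MyoD peaks (0.118%) overlapped some Myf5 mock peak by at least 1 bp, and this one ranked 26 among them. It is the only MyoD peak of the locus without a Myf5 partner, and it ranked 103 of the 1127 MyoD peaks of that kind. No peak of the whole Myf5 list overlapped a Myf5 mock peak, so an absent Myf5 call at this position says nothing about Myf5 binding there. The nearest Myf5 peak began 6886 bp above the gene stretch. The MyoD mock had no peak here.

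**Figure D3:**
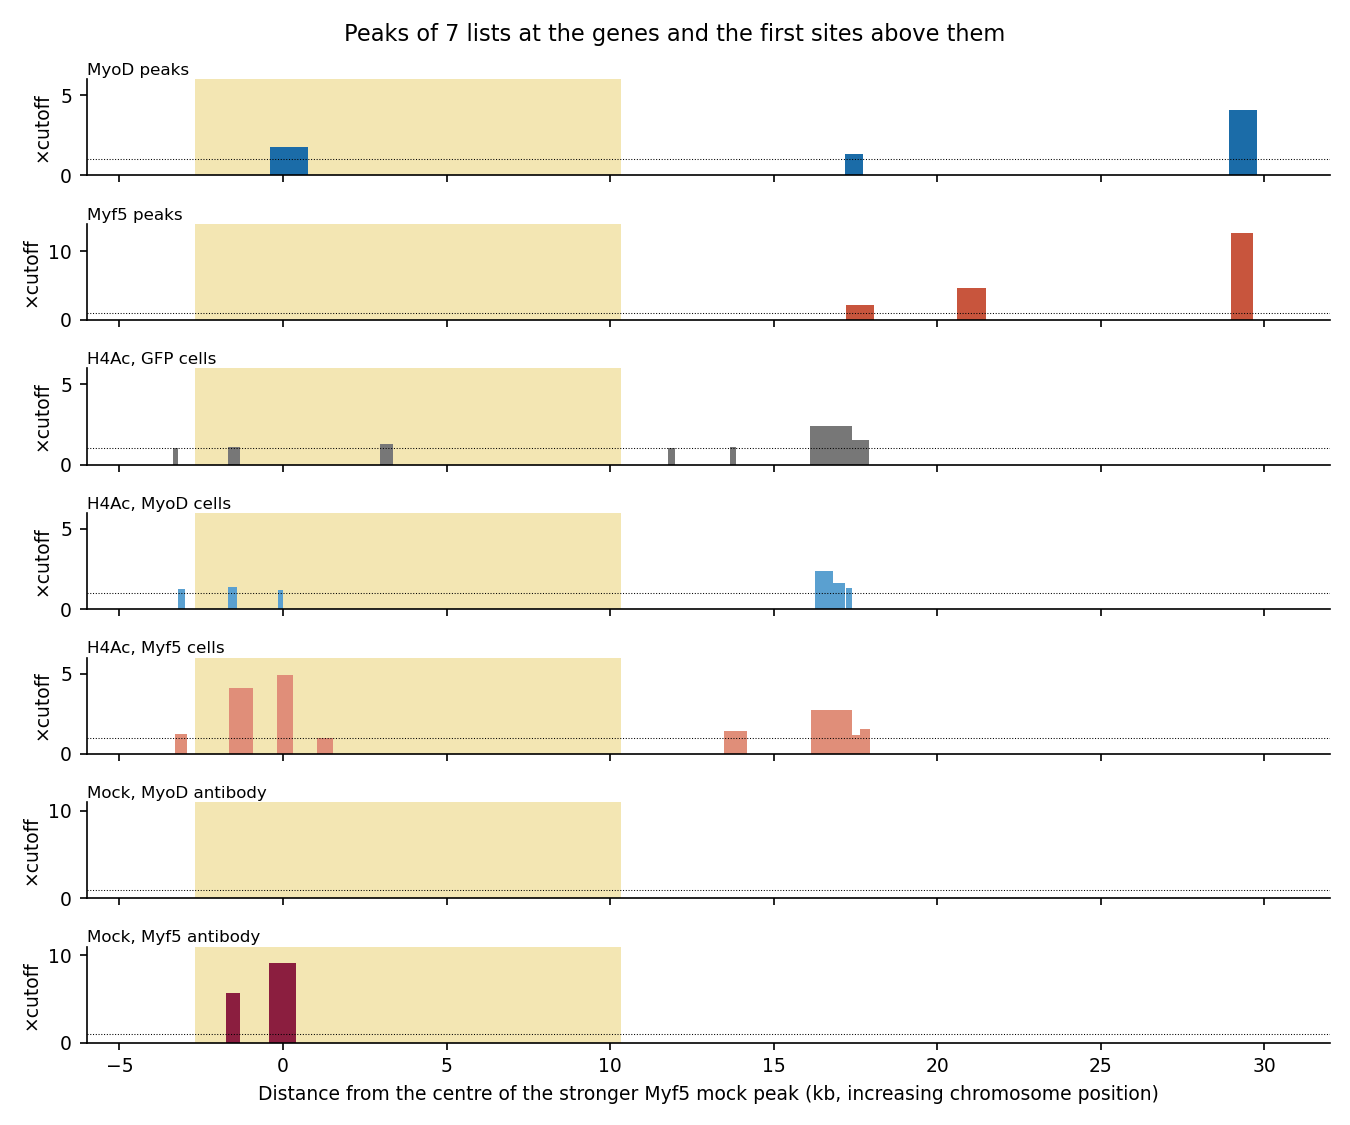
Peaks of the 7 lists at the gene stretch (shaded) and above it, with distance from the centre of the stronger Myf5 mock peak in kb and height as maximum coverage divided by cutoff. The H4Ac bars of cells with Myf5 at the 2 mock positions reach 4.08 and 4.92 times the cutoff, and those of the other populations there stay at 1.38 or lower.

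Outside the gene stretch both factors were called upstream of Myf5 at 4 shared sites, and another 4 Myf5 peaks had no MyoD call. The share of locus MyoD peaks with a Myf5 peak was 4 of 5 (80%, exact 95% binomial interval 28.4 to 99.5), against 97.5% of the whole MyoD list. That of locus Myf5 peaks with a MyoD peak was 4 of 8 (50%, 15.7 to 84.3), against 45.9% of the Myf5 list. Both intervals cover counting error only and hold the share of the whole list. Neighbouring peaks are not independent. The Myf5 list is also longer, with 93787 peaks against 45015 for MyoD. With the lists cut to equal length, 80% of the locus Myf5 peaks left had a MyoD peak. The share of the whole list under that setting was not computed.

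The strongest site of both lists lay at 106951593 to 106952460, 29.3 kb above the stronger mock peak. MyoD coverage there was 110 (rank 7363 of 45015) and Myf5 coverage was 343 (rank 4295 of 93787), which places 83.6% and 95.4% of the lists at or below it. The peak centres were 39 bp apart. The next shared site by MyoD coverage was at 107063506 to 107064595, with 80 for MyoD and 113 for Myf5, and centres 64 bp apart. The site at 107099233 to 107100334 crosses the upper edge of the window and had 62 for MyoD and 119 for Myf5, so the order of these 2 sites differed between the lists. The weakest shared site was the one nearest to the genes, at 106939874 to 106940408, with 35 for MyoD and 58 for Myf5. Its centres were 168 bp apart, the widest of the 4 pairs. Control coverage at the 5 MyoD peaks was 4 to 7, with a list median of 5, and at the 8 Myf5 peaks 11 to 15, with a list median of 11.

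The 4 Myf5 peaks without a MyoD partner included a strong one. At 106943275 to 106944178, between the 2 shared sites closest to the genes, Myf5 coverage was 127 (4.7 times the cutoff of 27). It ranked 222 among the 50737 Myf5 peaks without a MyoD peak, whose median was 39. Its control coverage was 15, a value reached by 9.86% of the list, and it overlapped no mock or H4Ac peak. The other 3 were near the median of that class, with coverages of 36 at 106983624 to 106984217, 38 at 107020321 to 107020944 and 34 at 107072978 to 107074030. They ranked 72283, 68295 and 76625 in the Myf5 list, deeper than the 45015 peaks that the MyoD list holds. Whether list length accounts for the missing MyoD calls was not tested.

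Within their lists, the factor peaks of the locus were somewhat above the middle and the H4Ac peaks were mixed. The median locus peak had 63% of the MyoD list and 64.9% of the Myf5 list at or below it. For H4Ac the medians were 16.1% with GFP, 52.5% with MyoD and 37.8% with Myf5. In cells with GFP only 3 of 15 locus peaks exceeded the list's median coverage, against 7 of 14 with MyoD and 6 of 18 with Myf5. GC-poor peaks have the lowest cutoffs, and among peaks of their own GC bin the medians were 39.8%, 72.8% and 72.7%. The lists differ in length and cutoff, so these percentages cannot be read as a change between populations.

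**Figure D4:**
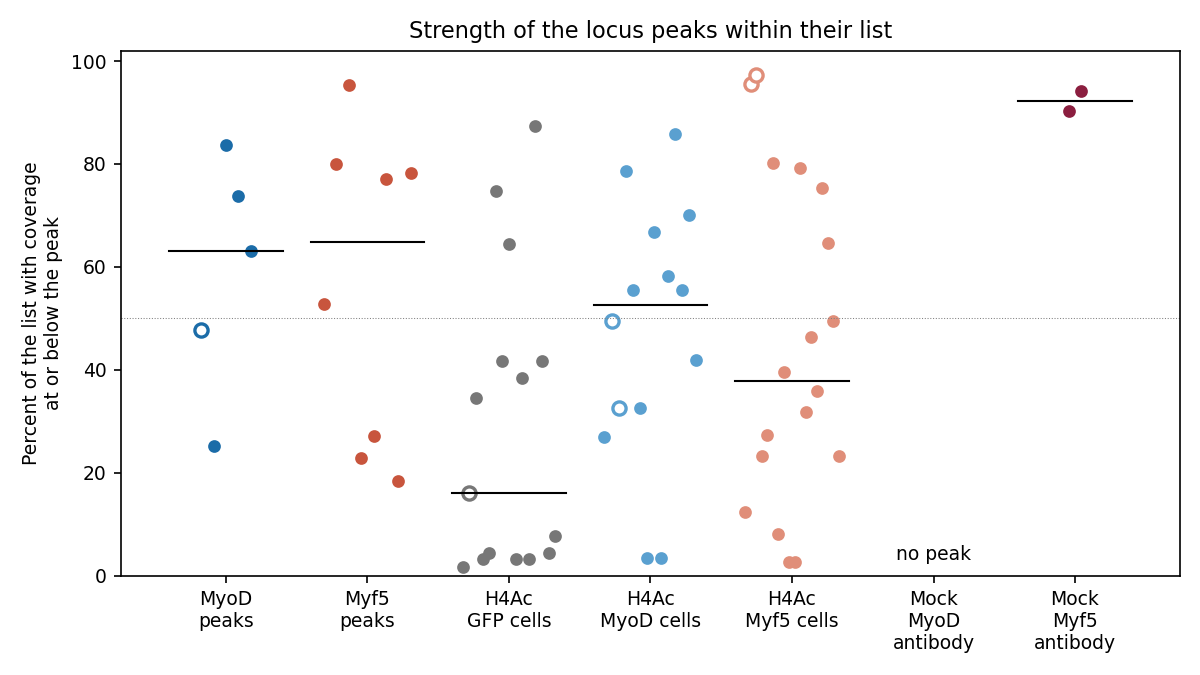
Percent of each list with a maximum coverage at or below that of each locus peak, ordered by position within a list. Lines are medians over the locus peaks, the dotted line is the middle of a list, and open circles are peaks at a Myf5 mock peak. The 2 open circles of cells with Myf5, at 95.5% and 97.3%, are the highest H4Ac points.

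Merging the 3 H4Ac lists gave 19 regions, and 9 of them were called in every population (47.4%, exact interval 24.4 to 71.1), against 40.8% of the merged regions of all chromosomes. Of the rest, 3 were shared by GFP and Myf5 and 1 by MyoD and Myf5 (4.79% and 8.3% of all merged regions), and none by GFP and MyoD (7.89%). Cells with Myf5 alone gave 3, with GFP alone 2 and with MyoD alone 1, against 13.7%, 10.5% and 14% of all merged regions. The exact interval of each of these 7 classes held the share over all chromosomes. In all, 14 of the 19 regions were called in cells that had received neither factor (73.7%, 48.8 to 90.9), against 64% of all merged regions. Peak by peak, 10 of the 15 H4Ac peaks with GFP had a counterpart with MyoD and 13 had one with Myf5, against 76.1% and 72.8% of the whole list. Of the 14 with MyoD, 12 had a counterpart with GFP and 13 with Myf5 (69.3% and 71.5% of the list), and of the 18 with Myf5, 14 had one with GFP and 11 with MyoD (68.1% and 72.8%). The strongest region called with GFP, at 107052148 to 107052601, had H4Ac coverages of 70 with GFP, 55 with MyoD and 49 with Myf5, which are 3.33, 2.89 and 2.45 times the cutoffs. It held no factor peak. The region at 106938803 to 106940075 had coverages of 50, 45 and 54, and the region at 107020243 to 107020813 had 42, 36 and 53. All 9 of these values were at least 1.89 times their cutoff.

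Of the other 6 regions called in every population, the one at 106920987 to 106921768 is the first mock position described above, at 1.08 times the cutoff with GFP, 1.38 with MyoD and 4.08 with Myf5. In the remaining 5, coverage was 1 to 2.05 times the cutoff. At 107037913 to 107038663 coverage was 31 with GFP, 32 with MyoD and 33 with Myf5. At 107052766 to 107053129 it was 32, 31 and 41. A pair of regions flanked the shared factor site at 107063506 to 107064595, at 107061167 to 107061412 and at 107065132 to 107065388. Their coverages were 23, 38 and 34 in the first and 24, 27 and 27 in the second, with GFP at 1.1 and 1.14 times its cutoff, MyoD at 2 and 1.42 times and Myf5 at 1.7 and 1.35 times. The last shared region below the genes, at 106919309 to 106919740, had 21, 24 and 24, with GFP at its cutoff.

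Regions called in 1 population were all near the cutoff. Those with Myf5 only had coverages of 27 (106923727 to 106924216), 20 (106979941 to 106980023) and 20 (106980331 to 106980454), each equal to its cutoff. Those with GFP only, at 106925642 to 106926038 and 106934462 to 106934654, had 30 and 22, at 1.25 and 1.05 times the cutoff. The one with MyoD only, at 107000124 to 107000413, had 20, at 1.05 times. Regions missed with MyoD and called in the other populations were at 106936151 to 106936871 (23 with GFP and 28 with Myf5), at 106940078 to 106940618 (32 and 31) and at 107051790 to 107051981 (22 and 30). The second of these adjoins the region at 106938803 to 106940075, and the third lies beside the strongest one. With 1 list per population, no error could be given for a call in one population and none in another.

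**Figure D5:**
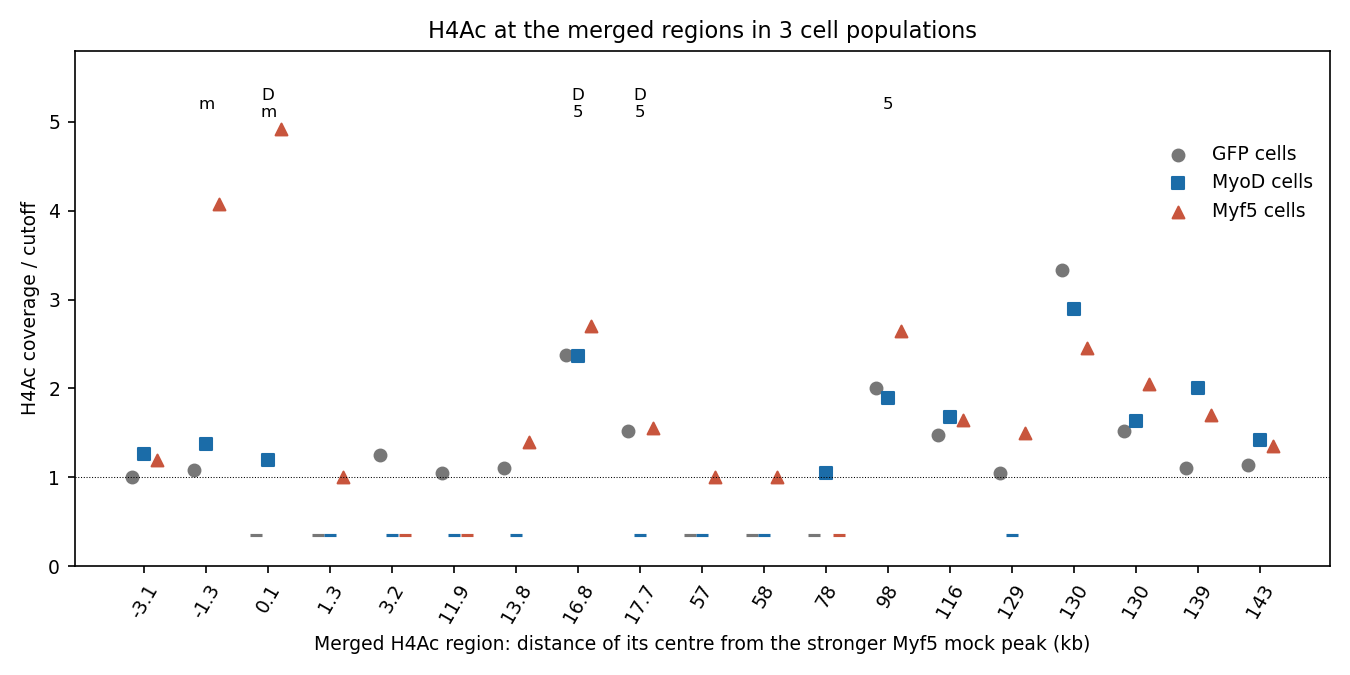
Highest H4Ac coverage divided by cutoff in each of the 19 merged regions, in order of position, with a dash where a population has no peak. Letters mark regions that overlap a MyoD peak (D), a Myf5 peak (5) or a Myf5 mock peak (m). Outside the 2 regions marked m, no value exceeds 3.33.

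An H4Ac peak of at least 1 population overlapped 3 of the 5 MyoD peaks and 2 of the 8 Myf5 peaks (60%, interval 14.7 to 94.7, and 25%, 3.19 to 65.1), against 21.6% and 16.5% of the lists. By population, of the 5 MyoD peaks, 1 was at an H4Ac peak of cells with GFP (20%, interval 0.505 to 71.6), 3 in cells with MyoD (60%, 14.7 to 94.7) and 2 in cells with Myf5 (40%, 5.27 to 85.3). The shares of the whole MyoD list were 14.4%, 18.6% and 15.1%. Of the 8 Myf5 peaks, 2 overlapped an H4Ac peak in each population (25%, 3.19 to 65.1), against 11.6%, 13.6% and 11.9% of the Myf5 list. The MyoD site acetylated in all populations was the weak one at 106939874 to 106940408. The peak in the gene stretch overlapped H4Ac in cells with MyoD and with Myf5, at the position of the mock peak, and without it the counts were 1, 2 and 1 of 4.

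The overlap was also counted from the side of the H4Ac peaks. With GFP, 2 of the 15 overlapped a MyoD peak and 3 a Myf5 peak (13.3%, interval 1.66 to 40.5, and 20%, 4.33 to 48.1), against 27.4% and 47% of the list. With MyoD, 2 of 14 overlapped a MyoD peak and 2 a Myf5 peak (14.3%, 1.78 to 42.8, for each), against 31.9% and 50.3%. With Myf5 the counts were 4 of 18 for each factor (22.2%, 6.41 to 47.6), against 27.2% and 45.5%. The share at Myf5 peaks in cells with MyoD was the only one of the 6 whose interval did not hold the share of the whole list. These 6 intervals share peaks and are not independent. Of those 14 H4Ac peaks, 2 lay at Myf5 mock peaks, where the Myf5 list has no calls. Another 3 lay in 1 merged region, at 106938803 to 106940075.

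The upper edge held a MyoD site with an H4Ac call in cells with MyoD only. The MyoD peak at 107099233 to 107100334 overlapped an H4Ac peak of coverage 27 at 107100132 to 107100502, which begins 132 bp past the window. The nearest H4Ac peak was 12583 bp away in cells with Myf5 and 33157 bp away in cells with GFP. The Myf5 peak at the same site ended 13 bp short of that H4Ac peak and so did not count as overlapping. A missing call in the other populations does not show that acetylation was absent there. Without replicate lists, no error could be given for this difference in calls.

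The strongest factor site of the locus had no H4Ac peak nearby in any population. At 106951593 to 106952460 the nearest call was 11006 bp away with GFP, 11518 bp with MyoD and 10975 bp with Myf5. The Myf5 site of coverage 127 was 2688, 3200 and 2657 bp from the nearest H4Ac peak. At 107063506 to 107064595 the nearest H4Ac peaks, those of the flanking pair, were 537, 543 and 541 bp away. Apart from the peak in the gene stretch and the site at the upper edge, H4Ac and a factor were called together at 106939874 to 106940408 and, for Myf5, at 107020321 to 107020944. The MyoD coverage of 35 at the first was the lowest of the 5 MyoD peaks, and the Myf5 coverages of 58 and 38 there were below the median of 85.5 over the 8 Myf5 peaks.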

How the data were processed

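Peak lists of 7 of 10 samples were used, and the 3 inputs were not used here. BWA 0.7.5, CASAVA 1.8.2 and the builds mm9 and hg19 appear in the submitters' processing notes with no role. Positions were read as mm9. No source used here names the peak caller or the control behind the H4Ac values. Per the file headers, each deposited list gives the authors' maximum coverage (signal) per peak, a coverage cutoff per GC bin and a p-value. Control coverage and its p-value, per the file headers, are in the factor and H4Ac lists. Some control p-values exceed 1, and 1 placeholder coverage was treated as missing. Coverage was ranked within a list only.

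Peaks overlapped if they shared 1 bp. Shares have exact Clopper-Pearson intervals at a level of 0.95, which cover counting error only. Tiles ran from the start of each chromosome to its last peak. The overlap, merging and tile steps were tested on simulated lists of 5000 peaks and recovered the planted values with an error of 0. The members and lists of results were chosen with earlier results of these data known. The naming rule took every peak of the gene stretch, the 5 strongest factor peaks of each list, the 3 strongest without a partner, mock peaks, and H4Ac peaks. It called for only the 5 strongest H4Ac peaks of a list with more than 12, and the remaining H4Ac regions, the weaker factor peaks and those outside the window were named after their values were seen. Identity of protein sequences was not run. Computation used Python 3.11.15 with matplotlib 3.10.9, scipy 1.17.1, pandas 2.3.3 and numpy 2.4.6.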

Additional observations from a re-analysis of the deposited data

Results flagged for a closer look

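Signals appeared in libraries and columns that serve as controls. The Myf5 mock, from cells labelled as carrying GFP, had coverages of 181 and 284 at the Myf5 end of the gene stretch (106920936 to 106921365 and 106922265 to 106923091), where the MyoD mock had no peak. The control coverage of the H4Ac list of cells with Myf5 was 14 and 22 at the H4Ac peaks of the same positions, against 7 at the first position in cells with GFP and 7 and 9 in cells with MyoD. The source of these reads was not tested.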

How the results depend on the processing

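Of 151 alternative values, 98 stayed within the counting interval of the reported share or within 1.5 times the reported count. The other 53 moved beyond, and the cause was not tested except where the setting itself leaves out peaks. These labels share no common scale. For list medians and tile percentages the interval counted the whole list or all tiles, so a Myf5 median of 65.4 (from 64.9) counted as moved. For shares it counted the few locus peaks. There, 60% (from 80%) of MyoD peaks with a Myf5 peak, by centres within 100 bp, counted as unmoved. No replicate could be left out, since each group has 1 list. No paired analysis was possible because the result comes from no test and each group has 1 list. Keeping the peaks above each list's median coverage gave 1.43 (from 2.38) MyoD, 2.38 (from 3.81) Myf5 and 1.43, 3.33 and 2.86 (from 7.14, 6.67 and 8.57) H4Ac peaks per 100 kb with GFP, MyoD and Myf5. Lower counts follow from this setting itself, and tile percentages were not recomputed for it. Only 3 MyoD and 5 Myf5 peaks of the locus remained, and the lists they were set against were cut in the same way. Of those MyoD peaks, 100% lay at a Myf5 peak and 0% at H4Ac in all 3 populations. Of those Myf5 peaks, 0% lay at H4Ac with MyoD. Shares of the whole lists under this setting were not computed. Leaving out the gene stretch with 10 kb on each side gave 4.52 H4Ac peaks per 100 kb with GFP, 5.65 with Myf5 and 0 Myf5 mock peaks (from 0.952). Settings chosen after seeing the data were tiles with a peak of any list, joined peaks, peaks wholly inside the window and leaving out peaks at a Myf5 mock peak. Among tiles with a peak of any list, 41.1% (MyoD), 52.3% (Myf5), 2.45%, 4.62% and 1.13% (H4Ac with GFP, MyoD and Myf5) and 1.23% (Myf5 mock, from 0.948%) held at least as many peaks. With peaks within 500 bp joined, the first 5 were 30.7%, 38.9%, 1.28%, 2.16% and 0.646%.

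The median percent of the list at or below a locus peak, within the same GC bin, was 67.2 (MyoD), 68.2 (Myf5), 39.8, 72.8 and 72.7 (H4Ac) and 94.3 (Myf5 mock, from 92.2). By coverage over cutoff it was 65.4 for Myf5 and 25.9, 59.2 and 59.3 for H4Ac. Without peaks at a Myf5 mock peak it was 68.4 for MyoD and 21.2, 55.5 and 33.9 for H4Ac. Under that setting, 100% of the 4 MyoD peaks left had a Myf5 peak, and 0 regions were called with MyoD and Myf5 but not GFP. With centres within 100 bp, 0% of the 5 MyoD peaks lay at H4Ac with GFP or MyoD and 0% of the 8 Myf5 peaks at H4Ac with MyoD. At 1.5 times the cutoff, there were 10 merged regions: 4 in all populations, 0 with GFP only, 0 with MyoD only, 1 with GFP and Myf5, 2 with MyoD and Myf5 and 3 with Myf5 only. Those 3 are both mock positions and 107051790 to 107051981, not the 3 regions called with Myf5 only among all peaks. In lists of equal length, 0 regions were called with MyoD only and 1 with Myf5 only. Merging within 500 bp left 1 region with GFP and Myf5. Within its width decile, 0.0624% of peaks had a control of 22 or more, against 0.0187%. Depth is unknown, and 1 list per group limits every comparison.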
